A study of Mus musculus with 8 samples.

Results

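The genes described here are 9 markers of striatal projection neurons, namely Adora2a, Gng7, Rgs9, Rasd2, Adcy5, Pde10a, Pde1b, Ppp1r1b and Ido1. They were chosen by symbol from the 55416 genes of a count table from mouse cerebral cortex; the rule uses names alone, and the set was drawn up with earlier results of these data known. RNA was compared between mice heterozygous for a knock-in of L192P in Ago2, labelled AGO2_L192P/+ (L192P), and wild-type animals (WT), and each genotype has 4 libraries. The knock-in was made in C57BL/6JUke embryos and carries an extra silent base change at the guide site, so the L192P animals differ from WT by more than the codon. The labels give neither the age nor the sex of the animals, and what the replicate numbers stand for is not given in them either. The comparison asked how heterozygosity for this substitution in Argonaute 2, the protein that carries miRNAs to their target mRNAs, goes with the level of these transcripts in brain tissue.

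Striatal projection neurons are the GABAergic principal cells of the striatum, and they read dopamine and adenosine mainly through cAMP. In cells of the indirect pathway (D2 type) the adenosine receptor encoded by Adora2a raises cAMP, in cells of the direct pathway (D1 type) the dopamine receptor D1 does so, and both act through the G protein Golf on adenylyl cyclase 5. Protein kinase A then phosphorylates DARPP-32, which in that state inhibits protein phosphatase 1, while phosphodiesterases break cAMP down and RGS proteins end G protein signals. In cortex proper some of these genes are found at low levels, DARPP-32 for instance in neurons of the deep layers.

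All 9 genes had lower counts in L192P than in WT, in each of the 4 same-numbered pairs of libraries, which makes 36 of 36 gene-by-pair comparisons. These comparisons are not independent, since the genes share the libraries and varied together (Pearson's r of each with the mean of the others, 0.48 to 0.93). The mean L192P level ran from 63.0% of WT for Ido1 to 93.2% for Rgs9. Among all 18627 genes tested, 11.4% were lower in 4 of 4 pairs. With genotype as the only term, 1 of the 9 genes, Rasd2, fell at a DESeq2 adjusted p under 0.05, where 1.36% of all genes tested passed in either direction and 0.569% passed as lower. Libraries with the same number deviated from their group means together, and with the replicate number as a block 6 of the 9 genes fell (Ppp1r1b, Pde10a, Adora2a, Gng7, Adcy5 and Rasd2), against a background of 2.43%. The 3 genes that did not pass with the block were Ido1, Pde1b and Rgs9. The values below are counts divided by the DESeq2 size factor of the library (normalized counts), and fold changes are L192P over WT on the log2 scale without shrinkage.

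**Figure D1:**
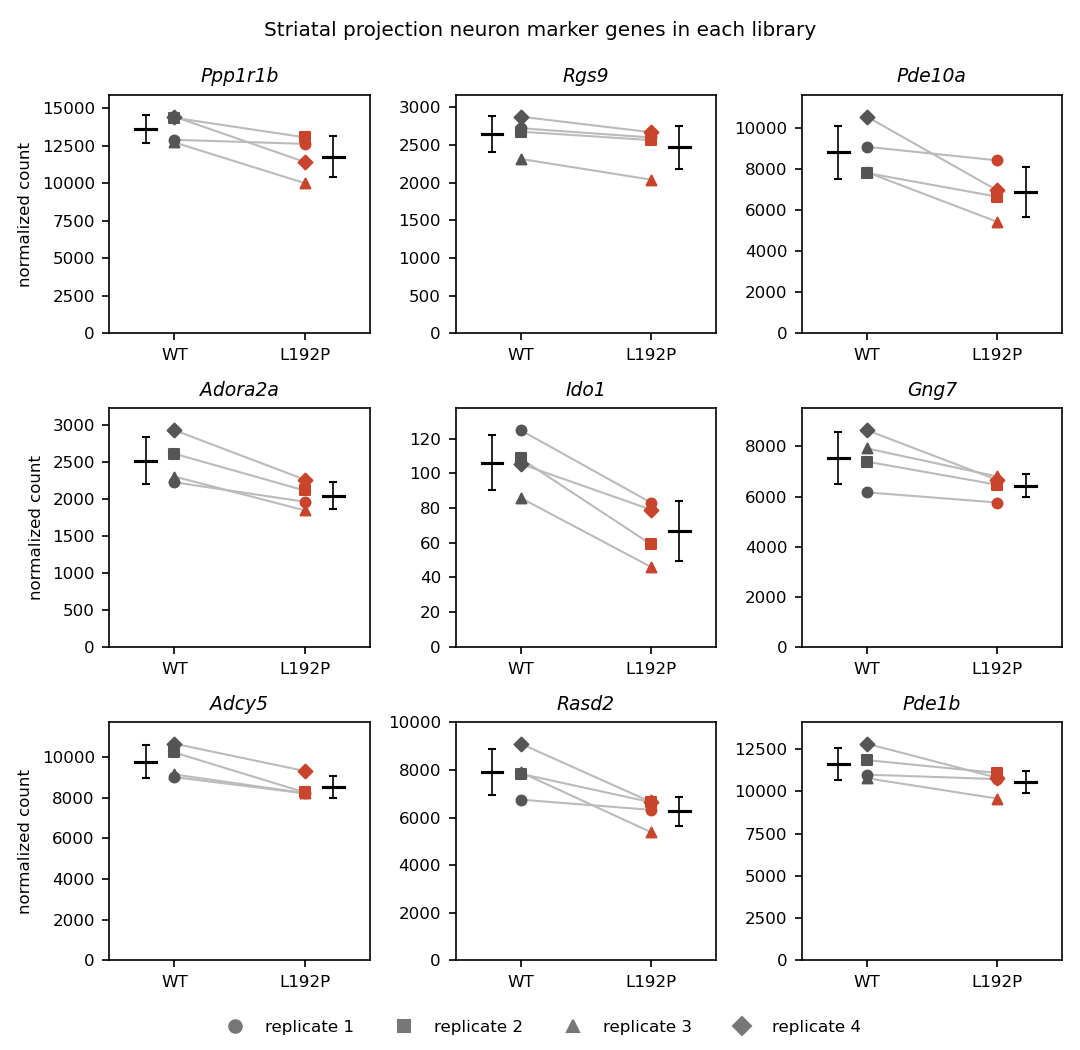
Normalized counts (vertical axes, starting at 0) of the 9 genes in the 4 WT and 4 L192P libraries, with 1 marker shape per replicate number, grey lines joining same-numbered libraries, and bars giving the mean ± SD of each genotype. Every line falls from WT to L192P, and the genotypes do not overlap for Ido1 and Rasd2.

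The total count per library ran from 20396357 to 43575900, so the abundant members are limited by the spread between libraries and Ido1, at 46 to 125, also by counting. Over all genes 147 were higher and 106 lower at an adjusted p under 0.05, and scaling by total counts gave 168 and 64. The replicate 1 library of each genotype stood apart in its sex-linked expression, where Xist was at 0.93 (L192P) and 1.82 (WT) normalized counts, against 5185 to 7257 in the other 6. The 9 genes are therefore also given for replicates 2 to 4, where 4 of the 9 genes fell (Ppp1r1b, Adora2a, Gng7 and Rasd2), against 1.81% of all genes tested. Nothing in the labels says that the libraries came from separate animals, so p-values measure the spread between these libraries.

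The receptor of the set, Adora2a (ENSMUSG00000020178, GRCm39 chromosome 10, 75152560 to 75170628, plus strand), encodes the adenosine receptor of D2-type projection neurons. Normalized counts were 1960, 2112, 1844 and 2260 in L192P replicates 1 to 4 and 2223, 2608, 2300 and 2926 in WT replicates 1 to 4. The L192P library with the highest value, replicate 4, lay just above WT replicate 1, so the genotypes overlapped by that pair alone. The means were 2044 ± 181.3 in L192P (SD, n = 4) and 2514 ± 320.9 in WT, or 81.3%. On the log2 scale L192P differed from WT by -0.30 ± 0.10 (standard error), and the DESeq2 adjusted p was 0.0992, or 9.35e-05 with the replicate block. Within replicates 2 to 4 it was -0.34 with a DESeq2 adjusted p of 0.0154.

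The 3 members that act at the level of the G protein are Gng7, Rgs9 and Rasd2. Gng7 (ENSMUSG00000048240, chromosome 10, 80784447 to 80850779, minus strand) encodes the gamma subunit that assembles with Golf in the striatum. The libraries held 5761, 6471, 6802 and 6665 normalized counts in L192P replicates 1 to 4 and 6166, 7392, 7921 and 8647 in WT. Replicate 1 was the lowest library of either genotype, and WT replicate 1 fell below 3 of the L192P libraries. The means of 6424 ± 462.9 in L192P and 7531 ± 1046 in WT (SD, n = 4) gave a log2 fold change of -0.23 ± 0.10 (standard error). The DESeq2 adjusted p was 0.324 without the block, 0.0014 with it and 0.00362 within replicates 2 to 4. Some exon sequence of Gng7 is shared with the annotated gene Gm3828 on the same strand, so the assignment of those reads is uncertain.

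Rasd2 (ENSMUSG00000034472, chromosome 8, 75940572 to 75950874, plus strand) encodes the small GTPase Rhes, which dampens G protein and cAMP signalling in the striatum. Its normalized counts were 6323, 6646, 5390 and 6658 in L192P and 6752, 7837, 7905 and 9102 in WT, replicates 1 to 4. Every L192P library lay below every WT library. The means were 6254 ± 596.4 in L192P and 7899 ± 960.3 in WT (SD, n = 4), or 79.2%. Rasd2 fell by 0.34 on the log2 scale (standard error 0.09, DESeq2 adjusted p = 0.0309), and the adjusted p was 0.0488 with the block and 0.000126 within replicates 2 to 4. Permuting the library labels exhaustively (exact, two-sided) gave p = 0.0286, the smallest value that 4 against 4 libraries allow. Over the genes tested, 2.96% had all L192P libraries below all WT libraries, and among the 9 members this held for Rasd2 and Ido1.

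The call on Rasd2 depended on single libraries. The DESeq2 adjusted p was 0.168 without L192P replicate 3, 0.086 without WT replicate 2, 0.121 without WT replicate 3 and 0.236 without WT replicate 4. It was 0.162 by edgeR's quasi-likelihood test and 0.0536 without independent filtering, and the range over the alternatives was 0.000126 to 0.236.

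Rgs9 (ENSMUSG00000020599, chromosome 11, 109116158 to 109189025, minus strand) encodes a regulator that speeds the end of G protein signals and whose long form is enriched in the striatum. In L192P it had 2599, 2564, 2040 and 2669 normalized counts, against 2722, 2676, 2315 and 2875 in WT, replicates 1 to 4. Replicate 3 was lowest in both genotypes, and 3 L192P libraries lay above WT replicate 3. The L192P mean of 2468 ± 288.8 was 93.2% of the WT mean of 2647 ± 237.2 (SD, n = 4). The log2 fold change of -0.10 ± 0.09 (standard error) did not pass, with a DESeq2 adjusted p of 0.862, or 0.392 with the block and 0.708 within replicates 2 to 4. Leaving out L192P replicate 3 brought it to -0.02. An exon of Gm39441 overlaps Rgs9 on the opposite strand, and exons of other annotated genes do so at Ppp1r1b, Pde10a, Adcy5 and Pde1b, so the counts of these 5 members may hold reads of their partners.

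Adcy5 (ENSMUSG00000022840, chromosome 16, 34975023 to 35126113, plus strand) encodes adenylyl cyclase 5, the main cAMP-producing enzyme of the striatum. Its normalized counts were 8205, 8255, 8216 and 9305 in L192P and 9000, 10211, 9131 and 10644 in WT, replicates 1 to 4. The first 3 L192P libraries lay close together and below all WT libraries, and replicate 4 alone reached into the WT range. The means were 8495 ± 540.1 and 9747 ± 807.4 (SD, n = 4), or 87.2%. Its log2 fold change was -0.20 ± 0.07 (standard error), with a DESeq2 adjusted p of 0.197, or 0.00124 with the block. Within replicates 2 to 4 the adjusted p was 0.0516 by DESeq2.

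Of the phosphodiesterases, Pde10a (ENSMUSG00000023868, chromosome 17, 8744204 to 9205482, plus strand) encodes the dual cAMP and cGMP enzyme that striatal projection neurons hold at very high levels. Across libraries the normalized counts were 8446, 6673, 5449 and 6988 in L192P and 9104, 7827, 7868 and 10575 in WT, replicates 1 to 4. L192P replicate 1 lay above WT replicates 2 and 3, and the other 3 L192P libraries lay below all of WT. The means were 6889 ± 1232 and 8843 ± 1298 (SD, n = 4), or 77.9%, the second lowest percentage after Ido1. This gave a log2 fold change of -0.36 ± 0.12 (standard error), with a DESeq2 adjusted p of 0.134, or 0.0379 with the block. Within replicates 2 to 4 the log2 fold change was larger, -0.46, but did not pass, with a DESeq2 adjusted p of 0.168.

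Pde1b (ENSMUSG00000022489, chromosome 15, 103411286 to 103439706, plus strand) encodes a calcium- and calmodulin-dependent phosphodiesterase. Its normalized counts were 10717, 11082, 9568 and 10800 in L192P and 10980, 11838, 10769 and 12810 in WT, replicates 1 to 4. The genotypes overlapped, with 2 L192P libraries above the lowest WT library. The means were 10541 ± 667.8 and 11599 ± 929.8 (SD, n = 4), or 90.9%. Its log2 fold change was -0.14 ± 0.07 (standard error), and the DESeq2 adjusted p was 0.548, or 0.0636 with the block and 0.212 within replicates 2 to 4. Exons of Pde1b overlap those of Ppp1r1a on the opposite strand, and Ppp1r1a had a log2 fold change of -0.0027.

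Ppp1r1b (ENSMUSG00000061718, chromosome 11, 98239169 to 98248624, plus strand) encodes DARPP-32. Libraries of L192P held 12636, 13073, 10022 and 11435 normalized counts, against 12907, 14375, 12731 and 14448 in WT, replicates 1 to 4. L192P replicate 2 lay above WT replicates 1 and 3, and L192P replicate 3 was the lowest of the 8 libraries. The means were 11791 ± 1368 and 13615 ± 922.8 (SD, n = 4), or 86.6%. The log2 fold change was -0.21 ± 0.09 (standard error), with a DESeq2 adjusted p of 0.316, or 0.00573 with the block, and 0.0392 within replicates 2 to 4. Without L192P replicate 3 the log2 fold change was -0.14.

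Ido1 (ENSMUSG00000031551, chromosome 8, 25074150 to 25087025, minus strand) encodes indoleamine 2,3-dioxygenase 1, which opens the kynurenine route of tryptophan breakdown. It was the least abundant member, with normalized counts of 83.2, 59.2, 46.1 and 79.1 in L192P and 124.8, 108.5, 85.8 and 105.4 in WT, replicates 1 to 4. The genotypes did not overlap, and the closest libraries were L192P replicate 1 and WT replicate 3. The means were 66.9 ± 17.4 and 106.1 ± 16.0 (SD, n = 4), or 63.0%, the lowest percentage of the 9 genes. The log2 fold change was -0.66 ± 0.22 (standard error), and the DESeq2 adjusted p was 0.108, or 0.0697 with the block and 0.135 within replicates 2 to 4. An edgeR quasi-likelihood fit with the block, chosen after seeing the data, gave an adjusted p of 0.0381 for Ido1 and called 7 of the 9 genes, all but Rgs9 and Pde1b, against a background of 1.40%.

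**Figure D2:**
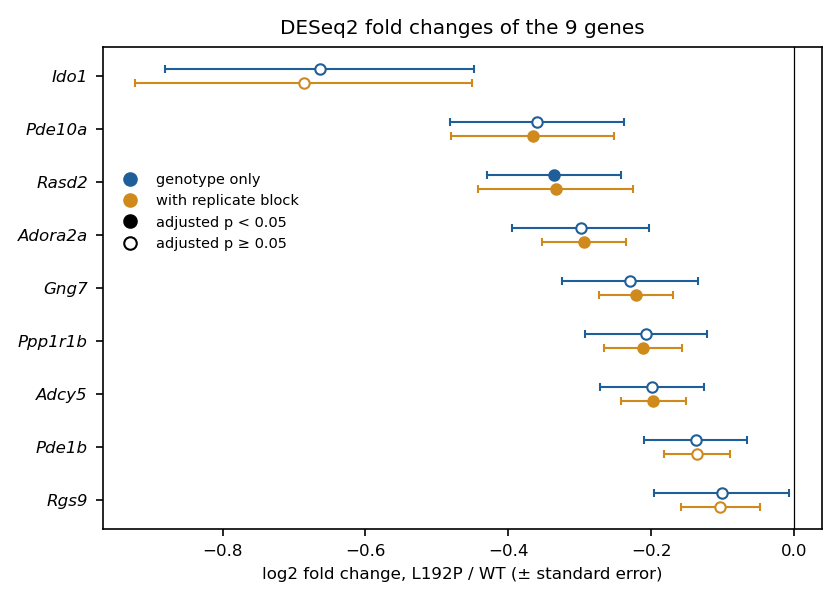
Log2 fold changes of L192P over WT (horizontal axis, ± standard error) of the 9 genes by DESeq2, with genotype only (blue) and with the replicate number as a block (orange). Filled points have an adjusted p under 0.05, which is Rasd2 alone without the block and 6 genes with it, and the estimates of both fits nearly coincide.

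The members differed in the strength of the shift between pairs. For Ppp1r1b the L192P library held 97.9% of its same-numbered WT library in pair 1, 90.9% in pair 2, 78.7% in pair 3 and 79.1% in pair 4. For Pde10a the shares were 92.8%, 85.3%, 69.3% and 66.1%, and for Rasd2 93.6%, 84.8%, 68.2% and 73.1%. Rgs9 stayed between 88.1% and 95.8% in all 4 pairs. L192P replicate 3 was the lowest L192P library for 7 of the 9 genes, and WT replicate 4 was the highest WT library for 8 of the 9. Averaged over the members on a centred log2 scale, the L192P libraries were at -0.07, -0.11, -0.34 and -0.05 for replicates 1 to 4, and the WT libraries at 0.08, 0.16, 0.04 and 0.30. Summed over the 9 genes, L192P libraries held 49376 to 56935 normalized counts and WT libraries 59979 to 72131, with no overlap.

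Divided by exon length, the WT level was highest for Ppp1r1b, at 4165 ± 282 normalized counts per kilobase (SD, n = 4), above 99.4% of the genes tested. Rasd2 followed at 1975 ± 240 and Pde1b at 1675 ± 134, and their ranges over the WT libraries overlapped. Adcy5 had 1315 ± 109, above the overlapping pair of Gng7 at 893 ± 124 and Pde10a at 675 ± 99 normalized counts per kilobase. Adora2a at 478 ± 61.0 and Rgs9 at 405 ± 36.3 normalized counts per kilobase also overlapped, and Ido1 was lowest at 58.1 ± 8.74, near the middle of the genes tested. The order is that of levels, and it is not the order of the fold changes. The lengths are of all annotated exons together, which lowers the value of a gene with long exons that the tissue does not use.

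The promoters of Adora2a, Gng7, Adcy5 and Rasd2 are shown because these 4 genes fell with the block and their 250 bases before the start lie outside every annotated exon. They are read 5′ to 3′ on the strand of the gene in GRCm39, with CCAAT and GGGCGG matches of either strand in capitals (ATTGG and CCGCCC on the other strand).
Adora2a, chr10:75152310-75152559, plus strand: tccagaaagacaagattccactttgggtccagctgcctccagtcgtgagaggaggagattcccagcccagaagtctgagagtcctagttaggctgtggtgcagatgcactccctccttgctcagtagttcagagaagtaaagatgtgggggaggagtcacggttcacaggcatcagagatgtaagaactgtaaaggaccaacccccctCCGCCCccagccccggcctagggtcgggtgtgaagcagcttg
Gng7, chr10:80850780-80851029, minus strand: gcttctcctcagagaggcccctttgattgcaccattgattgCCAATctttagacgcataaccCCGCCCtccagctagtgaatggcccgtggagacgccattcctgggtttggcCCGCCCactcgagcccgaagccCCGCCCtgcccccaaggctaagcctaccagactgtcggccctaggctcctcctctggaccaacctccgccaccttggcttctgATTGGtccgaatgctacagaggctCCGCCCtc
Adcy5, chr16:34974773-34975022, plus strand: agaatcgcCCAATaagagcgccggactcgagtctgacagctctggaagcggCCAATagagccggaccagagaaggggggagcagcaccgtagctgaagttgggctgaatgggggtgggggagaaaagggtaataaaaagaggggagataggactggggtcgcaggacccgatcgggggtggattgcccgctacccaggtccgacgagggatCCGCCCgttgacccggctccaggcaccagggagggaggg
Rasd2, chr8:75940322-75940571, plus strand: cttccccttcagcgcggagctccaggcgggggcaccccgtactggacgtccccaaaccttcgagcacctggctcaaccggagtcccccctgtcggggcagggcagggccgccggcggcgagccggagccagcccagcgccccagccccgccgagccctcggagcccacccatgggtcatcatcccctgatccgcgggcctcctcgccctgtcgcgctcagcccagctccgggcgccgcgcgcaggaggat
Gng7 held 4 GC boxes and 2 CCAAT boxes, Adcy5 1 GC box and 2 CCAAT boxes, Adora2a 1 GC box, and Rasd2 none of the letters searched. Over the 9 promoters GGGCGG was present in 6, where 36.4% of 21583 promoters of protein-coding genes of the same length held it. The GC content of the 9 windows ran from 44.4% (Ido1) to 75.2% (Rasd2), and only Ido1 lay below the median of 53.2% over all promoters. The shares over all promoters were not matched for GC content, so they do not show an excess of a motif. The windows of Ppp1r1b, Rgs9, Pde10a and Pde1b overlap annotated exons. CCAAT was present in 4 (Rgs9, Ido1, Gng7 and Adcy5), against 36.5% of all, and TATAAA in 1 (Rgs9), against 12%. The full cAMP response element TGACGTCA was in 0 of the 9 windows and in 1.69% of all, and its core TGACG, which lies inside the full element, was in 1 (Ido1) and in 18% of all. All motifs were searched on both strands, and a match is a run of letters and not a binding site.

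Because Argonaute 2 acts through miRNAs, the 3′ UTRs of the canonical transcripts were searched for exact 7-base matches to the seeds of 5 miRNAs, a choice made after the data were seen. The miRNAs were miR-128-3p and miR-9-5p, which are abundant in brain, and miR-92a-3p, miR-29a-3p and miR-5121, taken for the miR-92-3p, miR29-3p and miR5121 that the study names. The study links miR-92-3p, enriched on AGO2-L192P, to predicted targets that were lower in L192P cortex. It links miR-5121, depleted on AGO2-L192P, to predicted targets that were higher there. The name miR29-3p stands only in a caption, for the panel that the study's text gives to miR-92-3p. The sequence matched most often was that of miR-128-3p, in 4 of the 9 genes (Pde10a, Adora2a, Adcy5 and Pde1b) against 20.5% of 20752 genes. Its mature form and the 5 sites are shown with the seed, or its match, in capitals.
mmu-miR-128-3p: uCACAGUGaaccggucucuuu
Pde10a, chr17:9202985-9203011, plus strand: taatttgtggccacaCACTGTGgttat
Pde10a, chr17:9204694-9204720, plus strand: cgtacttgcccagaaCACTGTGaaaca
Adora2a, chr10:75170590-75170616, plus strand: aaataaaatgagccaCACTGTGtttta
Adcy5, chr16:35124529-35124555, plus strand: aagggtctgcttttcCACTGTGgagag
Pde1b, chr15:103437400-103437426, plus strand: caggccctcagtggtCACTGTGcccat
A site of miR-5121 was found in Pde10a and Adcy5, against 9.59% of genes, and one of miR-9-5p in Adcy5 and Rasd2, against 13.4%. Pde10a alone held sites of miR-92a-3p, with 2 matches, and of miR-29a-3p, against 6.94% and 14.2% of genes. Its 3′ UTR of 4992 bases was the longest of the 9, where the median over all genes was 1089 bases. Those of Pde1b and Adcy5, at 2485 and 2002 bases, also exceeded this median, and that of Adora2a, at 858, did not. The shares over all genes were not matched for length, so they do not show an excess of sites. Ppp1r1b, Rgs9, Ido1 and Gng7 held no match to the 5 seeds, and their log2 fold changes of -0.21, -0.10, -0.66 and -0.23 stand beside -0.36, -0.30, -0.20 and -0.14 for Pde10a, Adora2a, Adcy5 and Pde1b and -0.34 for Rasd2, which hold matches. The mature sequence is from RefSeq and the sites are from GRCm39.

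A further list of 22 genes of striatal projection neurons held none of the 9. All 22 were tested, 3 fell, Penk and Scn4b among them, and 0 rose, though 11 had an unadjusted p under 0.05 by DESeq2, 9 of them lower, and the median log2 fold change was -0.17 against 0.0019 over all genes tested and -0.23 for the 9 members. Over all genes tested 0.569% were called lower. With the block 6 of the 22 fell, against 2.43% of all genes, and within replicates 2 to 4 it was 5, against 1.81%. Penk encodes the enkephalin precursor, the peptide of D2-type neurons, at 7445 ± 1123 in L192P and 10609 ± 1101 in WT (normalized counts, SD, n = 4). Its individual values were 6334, 7883, 6750 and 8814 in L192P and 10246, 10306, 9680 and 12205 in WT, with no overlap. Penk fell by 0.51 on the log2 scale (standard error 0.10, DESeq2 adjusted p = 0.000286), and within replicates 2 to 4 the adjusted p was 0.0595.

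Scn4b, a sodium channel beta subunit, fell by 0.44 on the log2 scale (DESeq2 adjusted p = 0.00267), from a WT mean of 9818 ± 1208 normalized counts to an L192P mean of 7237 ± 889.1 (SD, n = 4). The L192P and WT libraries did not overlap for Scn4b. By edgeR without the block, Penk and Scn4b had adjusted p-values of 0.055 and 0.0876. Gnal, the alpha subunit of Golf, had means of 6058 ± 562.9 and 6791 ± 757.9 normalized counts, with a DESeq2 adjusted p of 0.592, or 0.0388 with the block, 0.396 within replicates 2 to 4 and 0.077 by edgeR with the block.

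Split by cell type, 6 genes of the direct pathway had a median log2 fold change of -0.03, and 0 passed by DESeq2 with or without the block or by edgeR, with an unadjusted p under 0.05 for 2 genes, 1 of them lower. Within replicates 2 to 4, 1 of the 6 fell, the muscarinic receptor gene Chrm4 (log2 fold change -0.36, DESeq2 adjusted p = 0.0412), and without L192P replicate 4, 1 of the 6, Ebf1, was called as higher. The 6 genes of the indirect pathway had a median of -0.19, with 1 called (Penk), or 2 with the block (Penk and Drd2). The 10 genes shared by both types had a median of -0.24, with 2 called, or 4 with the block. The dopamine receptors, named after their values were seen, averaged 1421 normalized counts against a WT mean of 1616 for Drd1 (DESeq2 adjusted p = 0.53) and 1340 and 1641 for Drd2 (0.0644, or 0.00173 with the block). The difference between both types was not tested. Not all of the list was lower, with Isl1 and Ebf1 of the direct list at log2 fold changes of 0.31 and 0.53 and Gpr149 at 0.47, none of which passed.

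Of 44 further genes of the cAMP and DARPP-32 pathway, 5 fell by DESeq2, 0 rose (12 had an unadjusted p under 0.05, all lower) and the median log2 fold change was -0.06, where 0.569% of all genes were called lower. With the block 9 of 43 fell, against 2.43% of all genes, the others being Adora1, Gnb5, Adcy2 and Ptpn5. Rgs4, a regulator of Gi and Gq signals that is abundant in cortex, fell by 0.50 (DESeq2 adjusted p = 0.000483), from 19788 ± 1986 normalized counts in WT (SD, n = 4). The cyclases Adcy1 and Adcy3 fell by 0.32 and 0.32 (DESeq2 adjusted p = 0.00267 and 0.0188). The phosphoproteins Arpp19 and Arpp21 fell by 0.40 and 0.39 (DESeq2 adjusted p = 0.00468 and 0.0143). The genotypes did not overlap for any of these 5 genes, which adds little, since the test on the same libraries had picked them. Of the whole list of 44, 8 genes had all L192P libraries below all WT libraries, against 2.96% of all genes. The Adcy3 call was lost without any of 6 of the 8 libraries (adjusted p from 0.0905 without L192P replicate 4 to 0.162 without L192P replicate 3), those of Arpp19 and Arpp21 without WT replicate 4 (0.0623 and 0.115), and by edgeR without the block all 5 calls were lost (adjusted p from 0.063 to 0.14).

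**Figure D3:**
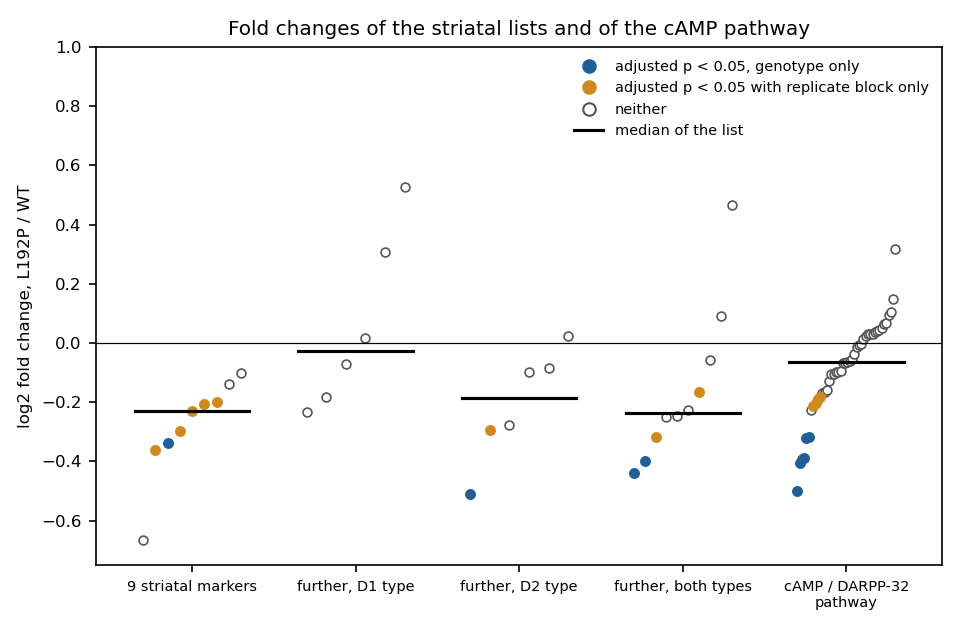
Log2 fold changes of L192P over WT (vertical axis) of the 9 genes, the further striatal genes by cell type and the cAMP and DARPP-32 pathway, each point a gene and each bar the median of its list. Blue points had a DESeq2 adjusted p under 0.05 with genotype only and orange points with the block alone; all of these lie below 0.

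For the enzymes around Ido1 no difference passed. Of 11 further kynurenine genes 6 were tested, and 0 had an adjusted or an unadjusted p under 0.05 by DESeq2 or by edgeR, while 1 had an unadjusted p under 0.05 by edgeR with the block. Ido2, the paralog next to Ido1, had 57.5 ± 3.11 normalized counts in WT (SD, n = 4) and a log2 fold change of -0.42 ± 0.23 (standard error, DESeq2 adjusted p = 0.607), with all L192P libraries below all WT libraries. The aminotransferase genes Kyat1 and Kyat3 were measured at 232.5 and 129.0 normalized counts in WT, with log2 fold changes of 0.0034 and -0.13.

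The genes most like the members were found by Pearson's r of centred log2 normalized counts with the members' mean profile over the 8 libraries, among 13413 genes with a mean of at least 50 normalized counts. High in that order were Mark1 (0.977), Rgs4 (0.975), Tmem132d (0.972), Scn4b (0.972), Gm10635, Diras2 and Rragd (0.97 each). These points share the genotype shift and the library, so the values are a description. Of these, Rgs4, Scn4b and Gm10635 fell by DESeq2, with log2 fold changes of -0.50, -0.44 and -1.29. The further striatal genes were spread over this order. Drd2 ranked 31, Drd1 73, Gpr6 117 and Rxrg 140. Far lower were Tac1 at 1880, Six3 at 4051, Dclk3 at 5574, Pdyn at 5895, Sp9 at 7012, Isl1 at 10262 and Ebf1 at 12723. Gpr149 ranked 13326 with an r of -0.87. Tac1 and Pdyn of the direct list had log2 fold changes of -0.07 and 0.02.

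The label of the tissue is cerebral cortex, and the defining genes of cortical glutamatergic neurons were present in every library, with Slc17a7 at 5986 normalized counts per kilobase in WT. Ppp1r1b at 4165, Penk at 3043 and Drd2 at 522 normalized counts per kilobase were present in the same libraries. What share of the tissue was striatum was not tested. In bulk tissue fewer cells of a type and less RNA per cell cannot be told apart.

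Markers of other cells and regions also differed between the genotypes, and their part in the lower level of the 9 genes was not tested. The 10 markers of cortical glutamatergic neurons all had negative log2 fold changes with a median of -0.18, 0 passed by DESeq2 (adjusted p from 0.123 to 0.856) or by edgeR, 4 had an unadjusted p under 0.05 by either tool, and 4 fell with the block (Slc17a7, Tbr1, Neurod6 and Lamp5). Their summed level was 44554 to 48948 in the L192P libraries and 50589 to 53890 in the WT libraries, or 89.2%, beside 85.2% for the 9 members and 82.1% for the further striatal list. Slc17a7 made up most of the cortical sum, with a WT mean of 33185 out of 52441 and a log2 fold change of -0.13. By median log2 fold change the cortical and further striatal lists were close, at -0.18 and -0.17, beside -0.23 for the members. The 3 genes listed as septum markers, Zic1, Zic2 and Zic4, rose, by log2 fold changes of 0.92, 0.73 and 0.79 (DESeq2 adjusted p = 0.0124, 0.000155 and 0.00345), and their sum was 1704 to 2353 in L192P and 771.5 to 1299 in WT. Whether these counts came from septum was not tested. Zic1 no longer passed when L192P replicate 1, L192P replicate 2 or WT replicate 2 was left out (DESeq2 adjusted p = 0.0644, 0.109 and 0.132), nor did Zic4 when L192P replicate 2 was (0.0713).

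Of the 5 genes listed as markers of striatal cholinergic neurons, Gbx2 rose (log2 fold change 1.99, DESeq2 adjusted p = 0.00821). The others had positive values that did not pass with genotype only. Gbx2 had few counts, at 46.7, 15.9, 40.4 and 16.8 in L192P replicates 1 to 4. It was highest in replicates 1 and 3, as were Tcf7l2 and Slc17a6 of the thalamus list. Chat, Slc5a7, Slc18a3 and Lhx8 were instead highest in L192P replicates 2 and 4. Which cells these counts came from was not tested. Slc5a7, the choline transporter, rose with the block (DESeq2 adjusted p = 0.0251) and within replicates 2 to 4 (0.0453), as did Lhx8 within replicates 2 to 4 (0.0179). Gbx2 no longer passed when L192P replicate 1, L192P replicate 3 or WT replicate 3 was left out (DESeq2 adjusted p = 0.0922, 0.101 and 0.0621). The cholinergic list summed to 623.8 to 1073 normalized counts in L192P and 505.6 to 683.9 in WT. The neuropeptides of the hypothalamus list, Oxt and Avp, rose by 4.53 and 4.22 on the log2 scale (DESeq2 adjusted p = 3.69e-07 and 0.000155), and that list summed to between 51.2 and 1054 in L192P and 26.0 to 41.9 in WT. The rise was uneven, with Avp at 328.9, 19.35, 458.9 and 220.4 in L192P replicates 1 to 4. For Avp the genotypes overlapped, since WT replicate 1 was at 21.85, and for Oxt they did not. In L192P replicate 3 the sum also held Pmch at 261.7 and Hcrt at 177.6. In that list Pmch was at 0 in 3 libraries and Hcrt in 1. For the thalamus list the sum was 1909 to 4910 normalized counts in L192P and 1765 to 2283 in WT, and 0 of its 5 genes passed by DESeq2 (adjusted p from 0.204 to 0.994, unadjusted p under 0.05 for 2) or by edgeR (unadjusted p under 0.05 for 3), while Slc17a6 rose with the block (adjusted p = 0.0299) and 3 of the 5 rose by edgeR with the block, Tcf7l2, Prkcd and Slc17a6 (adjusted p = 0.0274, 0.0391 and 0.00666). Leaving out L192P replicate 2 or L192P replicate 4 gave 1 call in this list each. L192P replicate 3, the lowest L192P library for 7 of the 9 members, had the highest thalamus and hypothalamus sums of all libraries. Its hippocampus, choroid plexus, astrocyte and microglia sums were also the highest of all. Among the L192P libraries it had the lowest septum, striatal cholinergic and cortical glutamatergic sums. Why this library differed was not tested.

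**Figure D4:**
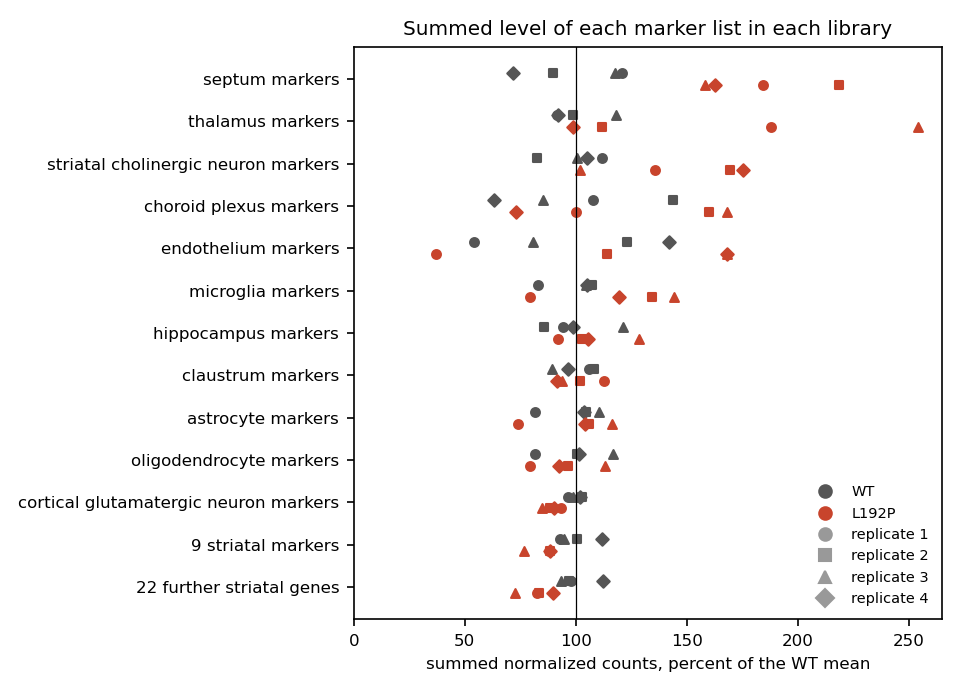
Summed normalized counts of each marker list in each library as a percentage of the WT mean of that list (horizontal axis), with WT in grey, L192P in red and 1 shape per replicate number. Lists are ordered by their L192P mean, lowest for both striatal lists and the cortical glutamatergic list and highest for the septum list. The highest thalamus library, L192P replicate 3, lies further right than any septum library. The L192P libraries of the endothelium list are widely spread, from 203.7 to 925.9 beside a WT mean of 551. The hypothalamus list, whose L192P libraries reach 1054 against 25.98 to 41.89 in WT, is left out for scale.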

How the data were processed

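Polyadenylated RNA of 8 cortex libraries, 4 per genotype, was sequenced for the study. Its methods name Eurofins Genomics or the University of Regensburg as the sequencing site and do not say which served these libraries. Per the labels, reads were aligned with STAR 2.7.9a to GRCm39 and assigned to genes with featureCounts 1.5.1, and the deposited counts are raw reads per gene, with no pooling. Whether the counting used strand is not given in the sources used here, so reads of overlapping genes on opposite strands may be mixed. A second deposited table of normalized values was not used here.

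DESeq2 1.42.0 in R 4.3.3 was fitted to all genes with genotype as the only term, Benjamini-Hochberg adjustment and a threshold of 0.05. The tool and the threshold are those of the study's methods. The 9 genes and all lists were chosen with earlier results of these data known. Genes of the further lists were named if called, together with the most abundant of the further striatal list (Penk, Scn4b and Gnal), and the 8 genes most like the members were taken by correlation. An item that these rules select is not reported here, and others were named after their values were seen. The chi-square per degree of freedom between libraries of a genotype was 5.52 to 22.6, more than counting alone gives, and each library counted as a replicate. Separate preparations from the same animal could also exceed counting noise, so this value does not show that the animals were separate. Deviations from the group means over 13422 genes correlated at 0.63, 0.38, 0.23 and 0.33 between same-numbered libraries and at -0.38 to 0.14 over the 12 other pairs, and the numbers were therefore taken as pairs. This pairing comes from the data, since the labels do not explain the numbers.

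The alternatives were edgeR 4.0.16 (quasi-likelihood, TMM), TMM and total-count factors, a filter of 10 counts in 4 libraries, independent filtering off, the Cook filter off, the replicate block, replicates 2 to 4, leaving out each library, and edgeR with the block, which was added after seeing the data. The programs were tested on simulated data. Positions, promoters and 3′ UTRs came from GENCODE M39 on GRCm39, where 98.8% of the gene identifiers were found.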

Additional observations from a re-analysis of the deposited data

Results flagged for a closer look

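A library was examined where its gap to the nearest library of its genotype was larger, as a share of the range of that genotype's 4 libraries, than Dixon's 95% critical value. Of 76 groups of 4 screened, 8 passed this bound, and chance gives about 3.8. Among the members, L192P replicate 3 stood apart for Rgs9 (2040 normalized counts, nearest 2564, gap 0.833 of the range) and L192P replicate 4 for Adcy5 (9305, nearest 8255, 0.955). L192P replicate 3 also stood apart for the summed level of the 9 striatal marker genes (49376, nearest 56730, 0.973). L192P replicate 2 was set apart for Adcy1 (10393, nearest 11659, 0.941) and, at the low end, for Oxt (19.4, nearest 143, 0.915). WT replicate 1 was set apart for Avp (21.9, nearest 11.9, 0.875), for Zic4 (118.4, nearest 87.6, 0.846) and for the summed microglia markers (3785, nearest 4787, 0.891). The causes were not tested.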

How the results depend on the processing

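All 9 genes kept a lower L192P level in each of the 17 alternatives, and the alternatives moved the median over all genes by at most 0.03 on the log2 scale. The number called did depend on the setting, and the cause was not tested. Of the 9 genes 1 was called, against 0 by edgeR and 0 without independent filtering (7 with an unadjusted p under 0.05 in each), 6 with the replicate block, 7 by edgeR with the block, 4 in replicates 2 to 4, and 0 to 4 when 1 library was left out. The count was 0 without L192P replicate 3 and without WT replicate 2, 3 or 4, where 5 to 7 genes had an unadjusted p under 0.05 by DESeq2; it was 2 without L192P replicate 1 and 4 without WT replicate 1. The further striatal genes had 3 calls, against 0 by edgeR (11 with an unadjusted p under 0.05), 5 by edgeR with the block, 6 with the block, 5 in replicates 2 to 4 and 2 to 6 when 1 library was left out (2 without WT replicate 4, 6 without WT replicate 1). The cAMP pathway had 5 calls, against 0 by edgeR (11 with an unadjusted p under 0.05), 8 by edgeR with the block, 9 with the block and 2 to 7 when 1 library was left out (2 without WT replicate 4). The kynurenine genes had 0 calls in all 17. Over all genes 253 were called, against 53 by edgeR, 513 by edgeR with the block, 533 with the block, 500 in replicates 2 to 4 and 112 (without WT replicate 4) to 496 (without WT replicate 1) when 1 library was left out. The split of higher and lower calls was 147 and 106, against 168 and 64 with total-count factors and 44 and 9 by edgeR, and lower calls were the more numerous with the replicate block (228 and 305) and in replicates 2 to 4 (238 and 262). The block changed no call of the 9 genes beyond those given. Genes of few counts such as Ido1 are limited by depth.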

Other observations

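The claustrum, hippocampus, choroid plexus, astrocyte, oligodendrocyte, microglia and endothelium lists had 0 genes called by DESeq2 with genotype as the only term or by edgeR. Of these, 2 claustrum and 2 microglia markers had an unadjusted p under 0.05 by either tool, and 1 of each list rose with the block. The 5 microglia markers all had positive log2 fold changes with a median of 0.23, and so did the 5 endothelium markers with a median of 0.33. Within replicates 2 to 4 all 5 microglia markers had an unadjusted p under 0.05 and 2 rose (Cx3cr1 and P2ry12, DESeq2 adjusted p = 0.000608 and 0.00399), and without L192P replicate 1 it was 3 of 5. The oligodendrocyte markers summed to 78057 to 110960 normalized counts in L192P and 79941 to 114406 in WT, with the L192P library lower in 4 of 4 same-numbered pairs (95.4% of WT). The astrocyte markers summed to 13335 to 21025 and 14704 to 19944, and the claustrum markers to 3130 to 3856 and 3047 to 3703, both at 100% of WT. The hippocampus markers summed to 3850 to 5394 in L192P and 3590 to 5091 in WT, the microglia markers to 3624 to 6584 and 3785 to 4910, and the endothelium markers to 203.7 to 925.9 and 298.7 to 782. The choroid plexus markers ranged from 16545 to 38067 in L192P and from 14331 to 32509 in WT. No listed marker of these lists was at 0 in any library.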
